A study of Mus musculus with 4 samples.

Results

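The HoxC cluster is the set of 9 genes Hoxc4, Hoxc5, Hoxc6, Hoxc8, Hoxc9, Hoxc10, Hoxc11, Hoxc12 and Hoxc13 on mouse chromosome 15. It was described here as the 200 kb of the mm8 genome from 102700001 to 102900000, with Hoxc13 at the low-coordinate side and Hoxc4 at the high side. The region was divided into 200 tiles of 1 kb, of 2630685 such tiles on chromosomes 1 to 19, X and Y. All libraries came from MDER 10T cells, a mouse fibroblast line that carries an estrogen-inducible MyoD1 (the transcription factor that drives muscle fate) according to the series title, grown with 10% FCS in DMEM/F12 medium that lacked phenol red. The labels name no treatment with estrogen. Chromatin immunoprecipitation sequencing (ChIP-seq) was done for H3K4me3, for H3K27me3 and for H3K9me3, and whole-cell extract (WCE) sequenced without antibody is the control. Each group holds 1 library, so there is no spread between replicates, and every interval below covers counting error only.

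Hox genes encode homeodomain transcription factors that set position along the body axis, and they lie on the chromosome in the order in which they are used from head to tail. Polycomb group proteins keep unused Hox genes silent and place H3K27me3 over them in wide domains, while trithorax group proteins place H3K4me3 at those in use. Fibroblasts keep a Hox pattern that reflects the body site they came from. H3K9me3 is the mark of heterochromatin.

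Gene order was taken from the RefSeq annotation of GRCm38.p6, a later build than mm8. From the low to the high side it lists Hoxc13, a regulator of hair and nail keratins, then Hoxc12, the long noncoding RNA Hotair, Hoxc11 and Hoxc10, both active in the hind part of the embryo, and the microRNA gene Mir196a-2. It goes on with Hoxc9 and Hoxc8, which pattern the trunk, Hoxc6, Hoxc5, the microRNA gene Mir615, and Hoxc4 at the end. No tile was assigned to a gene, because no mm8 gene positions were used, and where a boundary falls between these genes is therefore not stated. The 2 microRNA genes are shown by a mature sequence each, since they lie among the Hoxc genes and RefSeq gives their mature sequences. miR-196a is known to act on messenger RNAs of Hox genes, Hoxc8 among them. Capitals mark the seed, bases 2 to 8. The sequences are from RefSeq, on the plus strand of GRCm38.p6, at chr15:102973365-102973386 and chr15:103014969-103014990.
miR-196a-5p: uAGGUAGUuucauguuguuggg
miR-615-3p: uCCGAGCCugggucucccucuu

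Of the 9 genes, 1 had a promoter in the RefSeq table, Hoxc4, the gene at the side that carried H3K4me3 below. Its 300 base window was 60.3% G and C, against a median of 52.7% over 32851 windows of that length in the table. Its observed to expected CpG ratio was 0.333, against a median of 0.384. The 250 bases before the start are printed with CpG pairs in capitals (plus strand, chr15:103034145-103034394 in GRCm38.p6) and hold 8 such pairs. The window was not located in mm8, so no reads are assigned to it.
Hoxc4 promoter: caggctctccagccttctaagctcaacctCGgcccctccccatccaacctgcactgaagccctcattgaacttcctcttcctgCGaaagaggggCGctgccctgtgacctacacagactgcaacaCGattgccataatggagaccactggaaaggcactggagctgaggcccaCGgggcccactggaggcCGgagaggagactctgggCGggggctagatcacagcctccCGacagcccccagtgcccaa

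The HoxC region was split into a part with H3K27me3 on the Hoxc13 side and a part with H3K4me3 on the Hoxc4 side, with the change near position 102809000. Over all 200 kb, the region held 1669 H3K4me3, 1501 H3K27me3, 371 H3K9me3 and 513 WCE reads. Read counts use reads with 1 reported position, 1 per position and strand, moved 60 bp along the strand. Libraries were scaled by their autosomal totals of 3086567 H3K4me3, 2933567 H3K27me3, 2101444 H3K9me3 and 2977697 WCE reads. The mark/WCE ratio over the whole region of H3K4me3 was 3.14 (95% exact interval 2.84 to 3.47), that of H3K27me3 2.97 (2.68 to 3.29) and that of H3K9me3 1.02 (0.894 to 1.17). The first 2 averages hide the split, since each mark lay mostly in its own part.

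**Figure D1:**
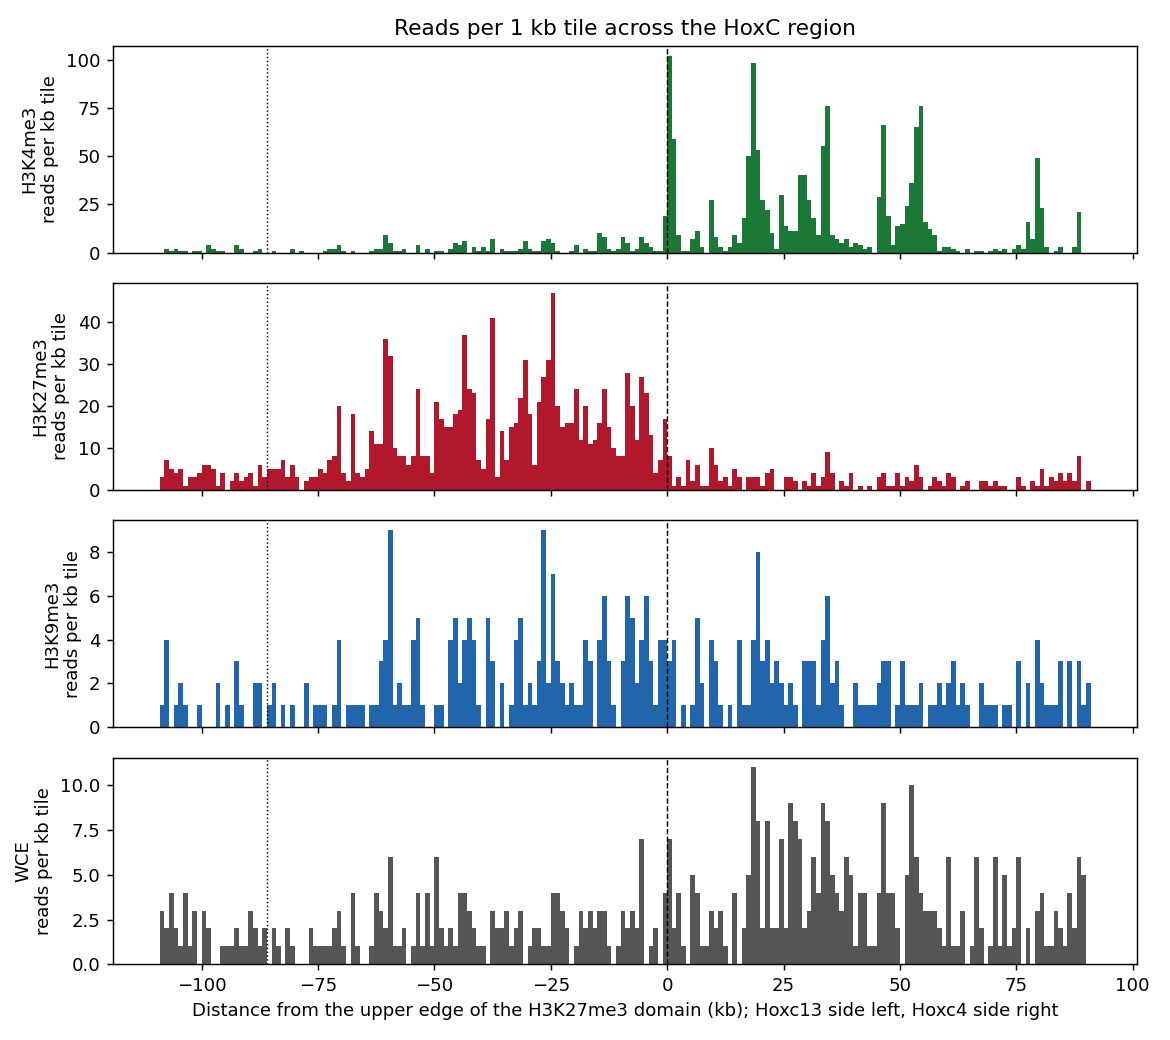
Reads in each 1 kb tile of the HoxC region (y axis, own scale for each library) for H3K4me3, H3K27me3, H3K9me3 and WCE, against distance in kb from the upper edge of the H3K27me3 segment. The dashed line is that edge and the dotted line the lower edge, 86 kb away; H3K27me3 reaches 47 reads left of the dashed line and 10 right of it, and H3K4me3 reaches 102 reads right of it and 19 left of it.

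Tiles were called raised for a mark when they held at least 10 of its reads and a scaled ratio to WCE of at least 2, with WCE counts under 3 set to 3. H3K27me3 was raised in 51 of 200 tiles (25.5%), where 0.651% of all tiles with reads were raised by the same rule. H3K4me3 was raised in 36 tiles (18.0%), against 1.82% of all tiles with reads. H3K9me3 was raised in 0 tiles, against 0.0726% of all tiles with reads. An exact binomial test of each mark against WCE was run in every tile of the genome with a read of either library. It used Benjamini-Hochberg adjustment and compares 2 libraries and not conditions. The test called 16 tiles for H3K27me3 (8% of 200, where 0.0418% of all tested tiles were called) and 23 for H3K4me3 (11.5%, against 1.19%). It called 0 for H3K9me3, against 0.00117%. WCE held 0 to 11 reads per tile, so ratios of single tiles have wide intervals.

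H3K27me3 covered the Hoxc13 side in a wide, uneven domain. By a running sum over 5 tiles with a ratio of at least 2, and gaps of up to 5 tiles joined, the longest run within the region went from 102702001 to 102810000, 108 kb. It held 1285 H3K27me3 reads and 202 WCE reads, a ratio of 6.46 (5.56 to 7.53). A fit of 3 segments by maximum likelihood gave a narrower segment of 86 kb, from 102723001 to 102809000, with 1205 H3K27me3 and 160 WCE reads and a ratio of 7.64 (6.48 to 9.07). These reads chose the edges, so the ratios are descriptions. The parts below are those of the 86 kb segment, because the running sum spreads each edge over neighbouring tiles and takes in the first strong H3K4me3 tile, with 102 reads. Over the 108 kb run the ratio was 1.55 (1.30 to 1.86) for H3K4me3 and 1.49 (1.22 to 1.81) for H3K9me3, and above that run 4.23 (3.73 to 4.81) and 0.713 (0.584 to 0.868).

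In the 86 tiles of the segment, H3K27me3 ran from 0 to 47 reads per tile with a median of 12, while WCE ran from 0 to 7 with a median of 2. The variance of the H3K27me3 tile counts was 6.93 times their mean, where evenly spread reads would give a value near 1, and WCE gave 1.20. H3K27me3 reads were thus unevenly spread within the domain. In 10 kb blocks the ratio was 4.06 (2.06 to 8.72) from 102720001, 4.74 (2.51 to 9.71) from 102730001 and 6.57 (4.13 to 10.96) from 102740001. It was 5.08 (3.15 to 8.54) from 102750001, 8.70 (5.52 to 14.4) from 102760001, 10.99 (6.68 to 19.3) from 102770001 and 11.3 (7.15 to 18.9) from 102780001. From 102790001 it was 6.57 (4.13 to 10.96), and the block from 102800001, which holds the edge, was at 5.76 (3.84 to 8.95). The 2 highest blocks thus lay 19 to 39 kb from the upper edge of the domain, though their intervals overlap those of several neighbours.

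**Figure D2:**
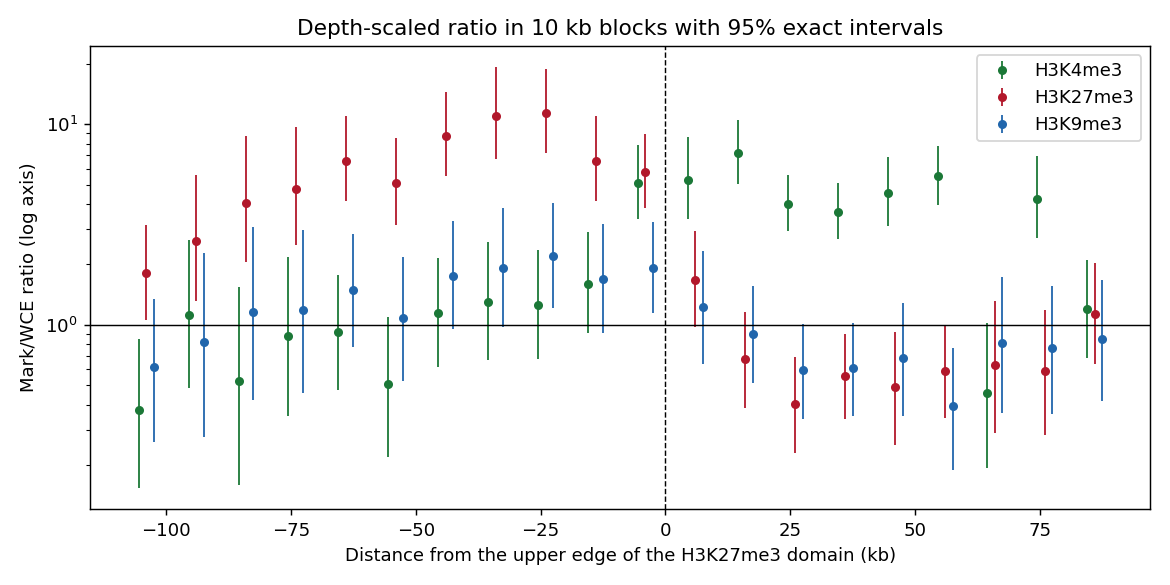
Mark/WCE ratio scaled to equal autosomal totals (y axis, log scale) in 20 blocks of 10 kb, against distance of the block's centre from the upper edge of the H3K27me3 segment in kb, with 95% exact intervals as bars and marks set slightly apart for legibility. H3K27me3 reaches 11.3 left of the edge and falls to 0.406 right of it, H3K4me3 lies between 3.67 and 7.16 in 7 of the 9 blocks that lie wholly right of the edge, and H3K9me3 stays between 0.395 and 2.20.

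Raised H3K27me3 tiles formed 12 runs. The longest, of 17 tiles from 102781001 to 102798000, held 337 H3K27me3 and 35 WCE reads (ratio 9.77, 6.89 to 14.3). A run of 9 tiles from 102759001 to 102768000 held 189 and 25 (7.67, 5.04 to 12.2), and a run of 6 tiles from 102745001 to 102751000 held 114 and 17 (6.81, 4.07 to 12.1). The last long run, 6 tiles from 102800001 to 102806000, held 123 and 15 (8.32, 4.85 to 15.3). All 16 tiles called by the exact test lay inside the segment, which these same reads chose, as did 50 of the 51 raised tiles. The exception was the tile at 102818001, with 10 H3K27me3 and 3 WCE reads.

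By the ratio with 1 read added to each side, the highest H3K27me3 tiles were those where WCE was at or near 0. The tile at 102778001 held 31 H3K27me3 and 0 WCE reads, at least 10.5-fold higher when WCE is set to 3 reads (exact lower limit 8.03; adjusted p = 1.5e-05, exact binomial test). The tile at 102804001 held 23 and 0 (at least 7.78-fold, lower limit 5.83), the one at 102770001 held 17 and 0 (at least 5.75-fold, lower limit 4.19), and the one at 102788001 held 16 and 0 (at least 5.41-fold, lower limit 3.91). The adjoining tiles at 102782001 and 102783001 held 27 and 31 H3K27me3 reads with 1 WCE read each, for ratios of 27.4 (4.52 to 1122) and 31.5 (5.24 to 1282). These intervals are so wide that the order of the 6 tiles is not resolved.

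H3K4me3 lay on the Hoxc4 side, in separate peaks with low ground between them. From 102809001 to 102900000 it held 1444 reads, or 15.9 per kb against 3.44 of WCE, a ratio of 4.45 (3.94 to 5.05), and its 91 tiles ran from 0 to 102 reads with a median of 7. The variance of these tile counts was 31.9 times their mean. Of the 36 raised tiles 34 lay here, as did all 23 called by the exact test. The other 2 were the tile at 102794001, with 10 H3K4me3 and 3 WCE reads, and the last tile of the segment at 102808001, with 19 and 4.

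The first H3K4me3 peak stood directly at the end of the H3K27me3 segment. Its raised tiles, from 102808001 to 102811000, summed to 180 H3K4me3 reads and 13 of WCE (13.4, 7.62 to 25.6). The tile at 102809001 held 102 H3K4me3 reads, the highest count of the region, and 7 WCE reads (14.1, 6.58 to 35.8; adjusted p = 2.28e-19, exact binomial test). The next, at 102810001, held 59 and 2 (28.5, 7.54 to 240), with 1 H3K27me3 read.

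Further along, H3K4me3 came back in wider groups of tiles. Runs of 7 tiles from 102825001 (278 H3K4me3 and 38 WCE reads, ratio 7.06, 5.02 to 10.2) and of 4 tiles from 102837001 (125 and 18; 6.70, 4.07 to 11.7) were followed by 2 tiles from 102842001 (131 and 17; 7.43, 4.47 to 13.1). Past a gap of 10 kb without a raised tile came 3 tiles from 102854001 (114 and 17; 6.47, 3.87 to 11.5) and the longest run, 8 tiles from 102858001 to 102866000 (258 and 33; 7.54, 5.24 to 11.2). Among single tiles of these runs, the one at 102863001 held 76 and 4 (18.3, 6.87 to 69.0) and the one at 102838001 held 40 and 2 (19.3, 5.004 to 165). The tile at 102859001 held 15 and 0, at least 4.82-fold higher with a lower limit of 3.46.

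After the run that ended at 102866000, no tile was raised for H3K4me3 over 20 kb. In the block from 102870001 to 102880000 it held 10 reads against 21 of WCE (0.459, 0.193 to 1.02). The next raised tile, at 102886001, held 16 H3K4me3 and 2 WCE reads (7.72, 1.81 to 69.2). A separate peak of 72 H3K4me3 and 7 WCE reads followed at 102888001 to 102890000 (9.92, 4.58 to 25.6), of which the first tile held 49 and 3 (15.8, 5.08 to 79.0). The last raised tile, at 102897001, held 21 and 6 reads. Neither it nor the tile at 102886001 was called by the exact test. H3K4me3 in the region therefore lay mostly within the 57 kb from 102809001, and these later raised tiles stood apart on the high side.

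Between the segment and the part above it, H3K27me3 was low where H3K4me3 was high, and the reverse. Within each of these parts, tiles with more reads of one mark on average also held more of the other and of WCE, as given below. Above the segment, H3K27me3 held 214 reads, fewer than WCE, a ratio of 0.694 (0.580 to 0.828). In the segment, H3K4me3 held 199 reads against 160 of WCE, a ratio of 1.20 (0.970 to 1.49). This value depends on the scaling and the control, since it was 2.10 (1.70 to 2.61) with scaling by the median ratio over 100 kb bins and 1.85 (1.60 to 2.12) against a uniform background, both above 1. H3K4me3 held, below the segment, 26 reads against 40 of WCE (0.627, 0.367 to 1.05). Compared directly with each other, without WCE, H3K4me3 made up 13.6% (11.8 to 15.4%) of the depth-scaled reads of both marks in the segment and 86.5% (84.7 to 88.1%) above it. In 10 kb blocks that share was 9.98% (6.61 to 14.3%) from 102780001, 46.8% (41.1 to 52.5%) from 102800001, 75.9% (68.5 to 82.3%) from 102810001 and 91.4% (87.4 to 94.4%) from 102820001.

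The ratio below 1 for H3K27me3 above the segment depends on the control. WCE reads were denser there, at 3.44 per kb against 1.86 per kb in the segment and an autosomal mean of 1.21 per kb. Per kb, H3K27me3 stood at 2.35 above the segment and 14.01 in it, with an autosomal mean of 1.19, so against a uniform background it was 1.97 times the mean above the segment and 11.8 times in it. WCE also rose with H3K4me3 from tile to tile. Above the segment it averaged 2.42 reads in the 55 tiles with under 10 H3K4me3 reads, 3.90 in the 21 tiles with 10 to 29 and 6.53 in the 15 tiles with at least 30. The part of WCE density in the low H3K27me3 ratio was not tested.

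In the classes of tiles above the segment, H3K27me3 averaged 1.84, 3.10 and 3.20 reads and H3K9me3 1.16, 2.24 and 3.07, both less steep than H3K4me3 itself at 2.98, 18.3 and 59.7. WCE, at 2.42, 3.90 and 6.53, rose more steeply than H3K27me3 from the lowest to the highest class. Relative to WCE, H3K27me3 was therefore lower in the tiles with the most H3K4me3. Tiles raised for both H3K4me3 and H3K27me3 numbered 3, and 0 were called for both by the exact test. They were the tile at 102794001 with 10 H3K4me3 and 16 H3K27me3 reads, the edge tile at 102808001 with 19 and 17, and the tile at 102818001 with 27 and 10. The share of all tiles raised for both marks is not given here, so whether 3 is few or many is not stated. Reads of pooled cells do not show whether both marks were on the same chromosomes.

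H3K9me3 was modestly higher in the H3K27me3 segment. It held 193 reads against 160 of WCE there, a ratio of 1.71 (1.38 to 2.12), against 157 above the segment (0.711, 0.583 to 0.864) and 21 below it (0.744, 0.417 to 1.29). Per kb, H3K9me3 stood at 2.24 in the segment and 1.73 above it, where WCE stood at 1.86 and 3.44. Against a uniform background it was 2.63 (2.27 to 3.03) in the segment and 2.02 (1.72 to 2.36) above it, with intervals that overlap. The part of WCE density in the difference between the ratios was not tested. No single tile was raised, and the highest held 9 reads. In 10 kb blocks the ratio peaked at 2.20 (1.21 to 4.07) from 102780001, the block with the highest H3K27me3 ratio. Within the segment, H3K9me3 averaged 0.917 reads in the 36 tiles with under 10 H3K27me3 reads, 2.19 in the 27 tiles with 10 to 19 and 4.39 in the 23 tiles with at least 20. WCE rose over the same classes from 1.14 to 1.96 and 2.87, and H3K4me3 from 0.917 to 2.44 and 4.35. All 3 other libraries thus had more reads in the tiles rich in H3K27me3, and the part of this in the H3K9me3 ratio was not tested.

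The 2 edges of the H3K27me3 domain had different shapes. At the upper edge, in the 20 kb on each side of 102809000, H3K27me3 went from 311 to 69 reads and H3K4me3 from 84 to 468, while WCE went from 43 to 64 and H3K9me3 from 61 to 43. The 3 tiles before the edge held 4, 7 and 17 H3K27me3 reads and 1, 1 and 19 H3K4me3 reads. The 3 tiles after it held 8, 1 and 3 H3K27me3 reads and 102, 59 and 9 H3K4me3 reads. The likelihood interval of this edge held no other tile boundary than 102809000. That fit assumes binomial counts at 1 level in the segment, while the variance of the H3K27me3 tile counts was 6.93 times their mean. The interval is therefore too narrow. The running ratio put the edge 1 tile higher at a ratio of 2, and lower, at 102808000 and 102807000, at ratios of 3 and 4. The step fit below placed the fall of H3K27me3 lower still.

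In bins of 100 bp, from 10 kb before to 3 kb after that edge, the steps of the 2 marks were placed apart when both strands were used. A single-step fit put the fall of H3K27me3 at 102805300 (interval to 102805800), from 20 to 6.72 reads per kb, and the rise of H3K4me3 at 102808600, from 3.96 to 54.4 reads per kb. With reverse reads alone the steps were at 102805400 and 102808600. With forward reads alone they were at 102805800 and 102808900, but the interval of the H3K27me3 step, 102804600 to 102810000, then held the H3K4me3 step, so forward reads did not separate them. Between the 2 steps lay a stretch in which both marks were low, and then the tile at 102808001 with its 17 H3K27me3 reads. The step fits used reads of each mark alone, without WCE, and WCE was sparse here too. In the tiles at 102804001 and 102805001, H3K27me3 held 23 and 13 reads with 0 and 1 of WCE. In those at 102806001 and 102807001 it held 4 and 7 with 2 and 0. The part of WCE density in the distance between the steps was not tested. With 1 library of each mark, this order of steps is a description of these reads.

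**Figure D3:**
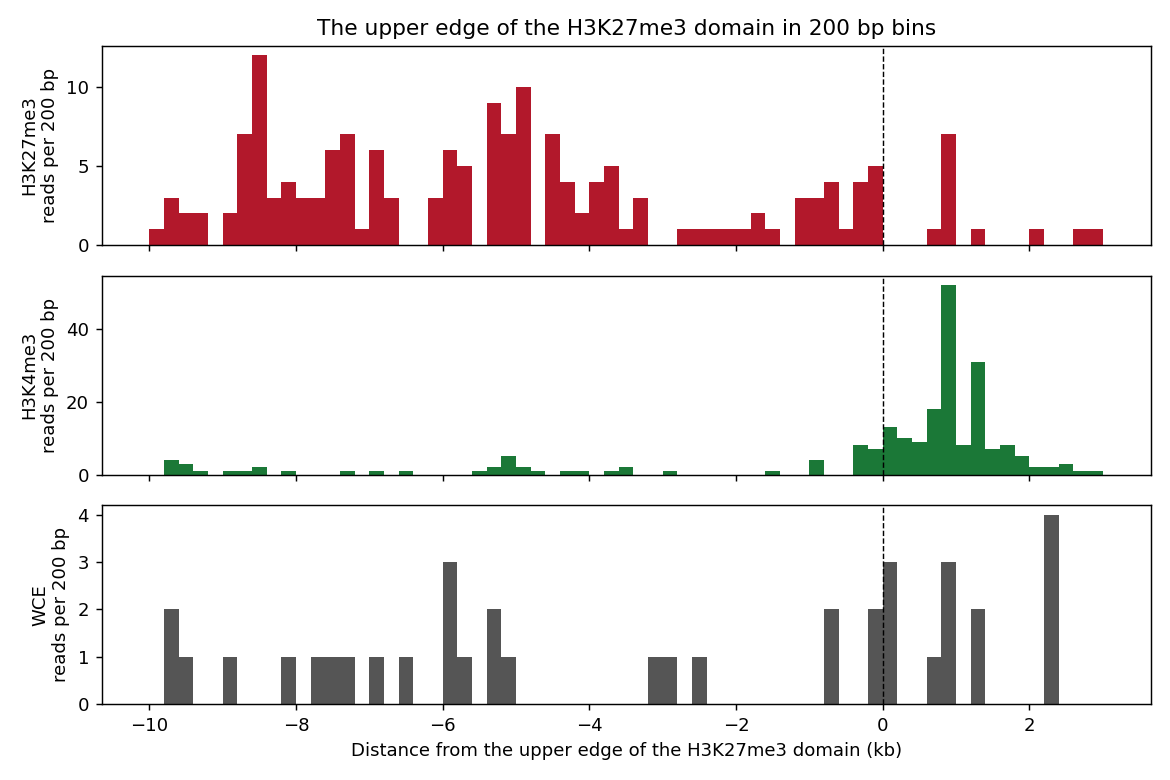
Reads in bins of 200 bp (y axis, own scale for each library) for H3K27me3, H3K4me3 and WCE from 10 kb before to 3 kb after the upper edge of the H3K27me3 segment (dashed line), against distance from that edge in kb. H3K27me3 has few reads in the bins from about 3 to 1 kb before the edge and reaches 7 reads in 1 bin after it, where H3K4me3 has its highest bin of 52.

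The lower edge had no such step. The 3 tiles before 102723001 held 1, 6 and 3 H3K27me3 reads and the 3 after it 5, 5 and 5, and over 20 kb on each side the counts were 67 and 114 with 31 and 23 WCE reads. The likelihood interval of this edge ran from 102721001 to 102738001, with the same limit as that of the upper edge. In the region below it, H3K27me3 held 82 reads against 40 of WCE, a ratio of 2.08 (1.41 to 3.12), so the mark was above the control there too, with no raised tile. The first raised tiles were at 102738001, with 20 H3K27me3 and 3 WCE reads, and at 102741001, with 18 and 4, and runs of several began at 102745001.

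The low-side level went on outside the region. In the 100 kb below it, H3K27me3 held 401 reads against 181 of WCE, a ratio of 2.25 (1.88 to 2.70), which is above the median of 0.841 over 39346 windows of 50 kb in the genome with at least 30 WCE reads, of which 4.28% had a ratio of at least 2. In steps of 20 kb the ratio was 3.14 (1.90 to 5.41) from 102680001 and 1.48 (0.928 to 2.37) from 102640001. It was 3.36 (2.47 to 4.65) from 102560001, where 179 H3K27me3 reads faced 54 of WCE. With the search widened beyond the region, the run at a ratio of 2 began at 102681001, and at ratios of 3 and 4 it began at 102723001. In the 100 kb above the region the H3K27me3 ratio was 1.39 (1.18 to 1.64), with 2.03 (1.40 to 2.97) in the 20 kb from 102960001. H3K4me3 was at 1.16 (0.980 to 1.38) in the 100 kb above the region and at 0.565 (0.440 to 0.722) in the 100 kb below.

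**Figure D4:**
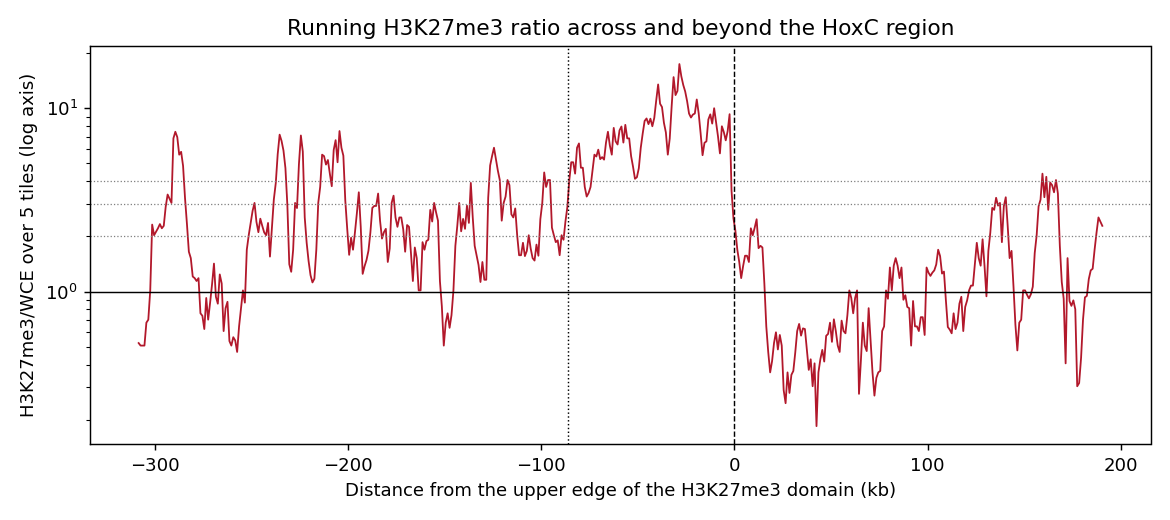
H3K27me3/WCE ratio in a running sum of 5 tiles (y axis, log scale) from 200 kb below to 100 kb above the HoxC region, against distance in kb from the upper edge of the H3K27me3 segment (dashed line; the dotted line is the lower edge). Grey dotted lines are ratios of 2, 3 and 4. The curve drops through them at the upper edge and crosses them many times on the low side. It also rises above them again on the high side, to 4.40 at 159.5 kb.

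Regions on chromosomes 6, 11 and 2 taken for the HoxA, HoxB and HoxD clusters were measured in the same way, without gene positions in mm8. In 200 kb of chromosome 6 (52040001 to 52240000), 220 kb of chromosome 11 (95980001 to 96200000) and 200 kb of chromosome 2 (74400001 to 74600000), H3K27me3 was raised in 18.5%, 34.1% and 9% of tiles, against 25.5% in the HoxC region. The 3-segment fit gave 45, 45 and 39 kb there, against 86 kb in HoxC, with H3K27me3 ratios of 7.02 (5.76 to 8.63), 7.18 (5.88 to 8.84) and 5.67 (4.43 to 7.35). The HoxC segment was longer by this fit, at a ratio whose interval overlaps those of all 3 others. By the running ratio the order differed, with 108 kb in HoxC, 87 kb in HoxA, 138 kb in HoxB and 53 kb in HoxD. Within the regions as drawn, HoxB then had the longest run. The HoxB run began at the first base of its region, and the HoxA run ended at the last base of its own. Both lengths are therefore lower limits. The HoxC run was 129 kb when the search was widened, so the order by this rule is not settled. The fit allows 1 segment for each region, while chromosome 11 held further H3K27me3 outside its own.

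H3K4me3 within the segment was lower in HoxC than in 2 of the other regions. Its share of the depth-scaled reads of both marks was 13.6% (11.8 to 15.4%) in HoxC, 21.2% (18.8 to 23.9%) in HoxA and 29.5% (26.8 to 32.2%) in HoxB, with intervals that do not overlap, and 14.4% (11.4 to 17.7%) in HoxD, which overlaps that of HoxC. Tiles raised for both marks numbered 3 in HoxC, 3 in HoxA, 14 in HoxB and 2 in HoxD, again without the share over all tiles. H3K4me3 was raised in 18.0% of HoxC tiles and in 19.5%, 25.0% and 18.5% of those of HoxA, HoxB and HoxD. No test with replicates was possible for these differences.

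**Figure D5:**
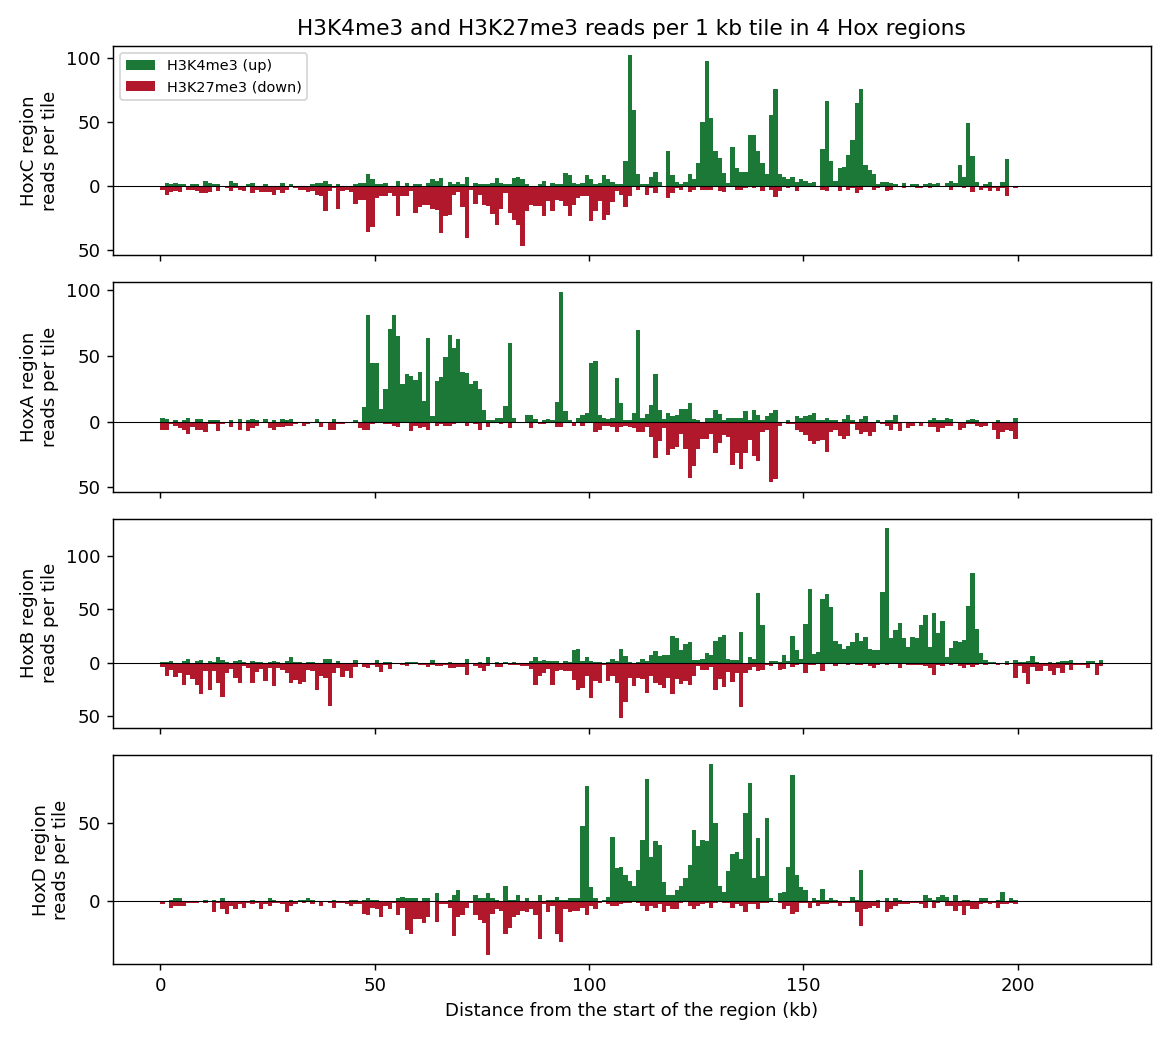
Reads per 1 kb tile of H3K4me3 (bars up) and H3K27me3 (bars down, counted downwards from 0) in the HoxC, HoxA, HoxB and HoxD regions, against distance from the start of each region in kb. In HoxC the 2 marks change over near 109 kb with 3 tiles raised for both, and in HoxB 14 tiles are raised for both.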

How the data were processed

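The deposited files list signed read positions, a coordinate unit that is neither a count nor a peak, reverse-strand reads being negative. Per the file headers, the authors aligned reads to mm8 with Bowtie (options e 70, k 2, m 2, n 2, l 36), and reads with 1 and with 2 reported positions are listed apart; the Bowtie version is not given in the sources used here. Reads with more than 2 places were dropped, and repeated positions were kept (5.92% to 8.40% of reads). Positions were collapsed to 1 per strand, moved 60 bp and counted in 1 kb tiles on chromosomes 1 to 19, X and Y. Intervals are 95% Clopper-Pearson, and they cover counting error only, because each group holds 1 library. Reads that carry no molecular identifier may also stem from the same molecule, which the intervals do not take into account. Where WCE was 0 the ratio is against a floor of 3 reads. The named tiles of each mark are the 6 raised ones with the highest scaled ratio after adding 1 read. The tile test and the edge rules were also run on simulated Poisson counts. Those for the edges had flat levels, unlike the uneven domain here, so they do not check its edge intervals. The members, regions and rules were chosen with earlier results of these data known. The 100 bp steps, 50 kb windows, tile classes, the parts of the 3-segment fit and the change-over search were chosen after the tile counts were seen. Alternatives changed repeats, shift, scaling, tiles, control and thresholds. The work used scipy 1.17.1, numpy 2.4.6 and matplotlib 3.10.9 under Python 3.11.15.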

Additional observations from a re-analysis of the deposited data

How the results depend on the processing

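With 1 library in each group, depth limits single tiles, and no replicate could be left out. No paired analysis was possible because each group holds 1 library. The start of the H3K27me3 domain, 102702001, moved with the procedure, to 102707001 with 9 tiles, 102708001 with a shift of 0 bp, 102708501 with tiles moved by 500 bp, 102721001 without joining, and 102723001 at a ratio of 3 or 4 or by 3 segments. Its end, 102810000, moved to 102807000 at a ratio of 4 (an alternative added after the data were seen), 102821000 with gaps of up to 10 tiles, 102824000 with 3 tiles or a ratio of 1.5, and 102833000 with a uniform background. Raised tiles fell to 23 for H3K27me3 and to 23 for H3K4me3 with at least 20 reads. In other tile sizes, where a tile covers more or less sequence, they numbered 80 for H3K27me3 and 62 for H3K4me3 at 500 bp, and 27 and 22 at 2 kb. For H3K9me3, none at the main settings, they numbered 11 with at least 5 reads, 4 of 500 bp, and 1 with all reads kept or a shift of 0 bp. For no count under altered settings, raised or tested, is the share of all tiles given here, so none is set against the genome. Tiles called by the exact test numbered 22 for H3K27me3 and 18 for H3K4me3 at 2 kb, and 6 and 30 at 500 bp. For H3K27me3 they numbered 10 at an adjusted p under 0.01 and 25 with scaling by 100 kb bins. That scaling raised log2 ratios by 0.81 for H3K4me3, 0.31 for H3K27me3 and 0.08 for H3K9me3, and gave region ratios of 5.51 for H3K4me3 and 3.68 for H3K27me3. A uniform background gave 6.66, 6.30 and 2.17 for H3K4me3, H3K27me3 and H3K9me3, and above the segment it turned the H3K27me3 ratio from 0.694 to 1.97 and the H3K9me3 ratio from 0.711 to 2.02, where WCE was 2.84 times its autosomal mean. In the segment, the H3K4me3 ratio of 1.20 went to 2.10 with scaling by 100 kb bins and 1.85 with a uniform background. The other alternatives moved no count of 1 kb tiles by over 1.5 times and no ratio over the whole region beyond its interval.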

Other observations

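Among 39346 windows of 50 kb with at least 30 WCE reads, the one from 102750001 to 102800000 had the highest H3K27me3 ratio of the genome, 8.40. The window below it, from 102700001, ranked 29 with 3.96. For H3K4me3 the window from 102800001 ranked 55 with 4.83 and the one from 102850001 ranked 430 with 3.62. For H3K9me3 the window from 102750001 ranked 1282 with 1.71. The windows were placed from the chromosome's start and not fitted to the cluster.

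A change-over as abrupt as that of HoxC was not particular to it. At 30 places in the genome, H3K4me3 changed at least 4-fold one way and H3K27me3 at least 4-fold the other way between the 20 kb on each side, with at least 100 reads of each mark on its high side. The HoxC position, 102809000, ranked 16 of 30 by the smaller of its 2 folds, 4.51. The highest, on chromosome 9 at 59412000, had 6.67, with 18 and 122 H3K4me3 reads and 120 and 18 H3K27me3 reads. The best positions in the HoxA, HoxB and HoxD regions had 3.19, 2.71 and 3.68, under the threshold of 4.

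Reads with 2 reported positions, left out above, were few in the HoxC region, with 7 for H3K4me3, 6 for H3K27me3, 1 for H3K9me3 and 2 for WCE.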
